A study of Mus musculus with 72 samples.

Results

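Serine can be made from glycolytic 3-phosphoglycerate by 3 enzymes in a row, and its side carbon then feeds the folate cycle of the cytosol and of the mitochondria. The 9 genes described here encode those enzymes: Phgdh, Psat1 and Psph of serine synthesis, Shmt1 and Shmt2 (the cytosolic and mitochondrial serine hydroxymethyltransferases), Mthfd2, Mthfd1l and Aldh1l2 of mitochondrial folate, and Aldh1l1, the cytosolic counterpart of Aldh1l2. In the deposited table Phgdh is ENSMUSG00000053398, Psat1 is ENSMUSG00000024640, Psph is ENSMUSG00000029446, Shmt1 is ENSMUSG00000020534, Shmt2 is ENSMUSG00000025403, Mthfd2 is ENSMUSG00000005667, Mthfd1l is ENSMUSG00000040675, Aldh1l2 is ENSMUSG00000020256 and Aldh1l1 is ENSMUSG00000030088. They were chosen by name, as members of this pathway, out of 51912 genes in the count table. All 9 were among the 19362 genes that passed the filter on low counts. Earlier results of these data were known when the members and the gene lists below were chosen. Their shares and medians, set beside those of all genes, therefore describe these genes and are not from a blind choice. RNA was sequenced from snap-frozen liver of male and female C57BL/6J and DBA/2J mice, both inbred strains, fed 1 of 3 diets, named Control, Medium Protein and Low Protein. The diets began at 10 weeks of age and lasted 13 weeks, so that every mouse was 23 weeks old, and all were housed at about 22 °C and fasted for 16 hours before tissue was taken. The labels do not state how much protein each diet held, and they name no transgene, deletion or drug in any group. Each of the 12 combinations of strain, sex and diet has 6 libraries, 72 in all. The labels do not say whether each library comes from a separate mouse, so the p-values measure the spread between libraries.

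Phgdh (phosphoglycerate dehydrogenase) commits carbon to serine synthesis, Psat1 (phosphoserine aminotransferase) adds nitrogen from glutamate, and Psph (phosphoserine phosphatase) releases serine. Serine hydroxymethyltransferases then split serine into glycine and a one-carbon unit carried by tetrahydrofolate. In mitochondria that unit is oxidised by Mthfd2, released as formate by Mthfd1l, or burnt to carbon dioxide by Aldh1l2, and formate returns to the cytosol for purine, thymidylate and methionine synthesis. Aldh1l1 removes formyl units from the cytosolic folate pool and is abundant in hepatocytes. Several of these genes, Psat1 and Mthfd2 among them, are textbook targets of ATF4, a transcription factor that cells activate when amino acids run short.

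In adult liver the 9 genes were measured at very different levels. Per kilobase of exon, Aldh1l1 stood at 214 ± 8.96 CPM (SD, n = 6) in C57BL/6J males on Control diet; CPM is the count after every library is scaled to the same effective size. Shmt1 was at 57.4 ± 3.98 CPM per kilobase and Shmt2 at 51.1 ± 1.86 CPM per kilobase in the same libraries. Psph, at 1.22 ± 0.15 CPM per kilobase, led the remaining 6 members. Mthfd1l followed at 0.239 ± 0.0345 CPM per kilobase, and Mthfd2 at 0.161 ± 0.070 CPM per kilobase. Phgdh was at 0.156 ± 0.0929 CPM per kilobase, Psat1 at 0.0956 ± 0.0607 CPM per kilobase and Aldh1l2 at 0.044 ± 0.0257 CPM per kilobase. Mthfd2, Phgdh, Psat1 and Aldh1l2 were therefore measured from few counts. Psat1 had 1 to 15 counts per library in that group and Aldh1l2 1 to 13, while 3 counts correspond to 0.0717 to 0.167 CPM depending on the library. The deposited counts are estimates that divide reads among genes they match. They were not whole in 72 of 72 libraries for Shmt1 and Aldh1l1, 50 for Psph, 36 for Aldh1l2, 18 for Phgdh, 1 for Shmt2 and 0 for Psat1, Mthfd2 and Mthfd1l, so reads of the first 5 were in part shared with other genes and their levels are less certain. Below, levels are CPM without division by length, and fold changes are log2 values fitted by edgeR.

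The libraries held 26.94 M to 38.45 M counts (median 32.39 M). Summed levels of 7 hepatocyte markers ranged from 70370 to 83400 CPM in C57BL/6J males on Control diet and from 65640 to 96790 CPM on Low Protein diet, so the defining markers of liver were abundant. In 4 libraries, transcripts resembling ribosomal RNA took over 3% of the counts, against a median of 0.139%, and 2 of the 4 are C57BL/6J males on Control diet. The codes in the sample descriptions run in the order of the groups, so whatever these codes stand for and group cannot be told apart. One library, replicate 1 of the C57BL/6J females on Control diet, stood apart: its 7 proliferation markers summed to 45.1 CPM against 4.00 to 6.62 CPM in the other 5, and its 8 pericentral hepatocyte markers to 3086 CPM, the lowest of a group whose median was 7820 CPM and whose highest was 8658 CPM. Results on the 9 members that rest on that library are given with and without it. Extreme marker sums also occurred among the C57BL/6J females on Low Protein diet. There the macrophage markers reached 656 CPM (group median 161), the neutrophil markers 15.2 CPM (2.98) and the B and plasma cell markers 14.6 CPM (4.85). The hepatocyte markers went down to 46580 CPM (group median 81920). The part of these sums in the female contrast was not tested beyond leaving out each library in turn.

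Promoter sequences of 8 members, 250 bases before each annotated start, were taken from RefSeq (GRCm38.p6), and Psat1 has 2 such starts. Those of Psat1 and Mthfd1l, which rose in C57BL/6J males on Low Protein diet, and of Aldh1l1, which fell there, are shown because the results below turn on these genes. Capitals mark a GC box (GGGCGG) or a CCAAT box (CCAAT) on either strand, and the bases are written 5′ to 3′ along the gene.
Psat1, first window, chr19:15924623-15924872, minus strand: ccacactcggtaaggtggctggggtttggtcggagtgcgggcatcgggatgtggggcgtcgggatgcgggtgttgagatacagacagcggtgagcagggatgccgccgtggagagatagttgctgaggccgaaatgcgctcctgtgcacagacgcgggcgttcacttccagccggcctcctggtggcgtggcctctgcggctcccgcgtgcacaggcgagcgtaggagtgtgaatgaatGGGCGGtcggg
Psat1, second window, chr19:15925060-15925309, minus strand: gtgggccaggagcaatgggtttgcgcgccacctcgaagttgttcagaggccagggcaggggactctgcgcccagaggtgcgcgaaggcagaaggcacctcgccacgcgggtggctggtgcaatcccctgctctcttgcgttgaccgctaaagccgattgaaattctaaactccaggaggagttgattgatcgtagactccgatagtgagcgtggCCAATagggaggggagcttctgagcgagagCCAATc
Mthfd1l, chr10:3972825-3973074, plus strand: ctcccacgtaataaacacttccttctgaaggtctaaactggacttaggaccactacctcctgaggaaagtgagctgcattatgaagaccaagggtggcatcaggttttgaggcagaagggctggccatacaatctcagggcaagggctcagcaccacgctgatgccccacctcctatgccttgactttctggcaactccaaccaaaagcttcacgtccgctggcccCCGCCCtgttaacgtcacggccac
Aldh1l1, chr6:90550543-90550792, plus strand: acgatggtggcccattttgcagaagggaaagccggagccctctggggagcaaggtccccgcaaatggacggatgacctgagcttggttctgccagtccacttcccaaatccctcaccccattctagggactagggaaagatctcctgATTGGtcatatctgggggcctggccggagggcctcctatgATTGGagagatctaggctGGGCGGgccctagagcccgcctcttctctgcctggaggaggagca
A GC box was found in 5 of the 9 member windows and in 32.7% of 32851 windows of the same length. A CCAAT box was found in 6 of the 9 and in 33.8% of all windows. These motifs were searched for after the expression values had been seen. TGATGNAA, the core of the composite element that C/EBP and ATF proteins bind, was found in 0 of the 9 and in 3.45% of all windows, and the E-box CACGTG in 0 of the 9 and in 6.02%. These counts describe letters within 250 bases only.

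In C57BL/6J males, the Low Protein diet went with more RNA for Psat1, Aldh1l2, Mthfd1l and Psph and with less for Aldh1l1 and Shmt1. Of the 9 members, 4 were called higher and 2 lower at an adjusted p below 0.05, where 9.78% of all tested genes were called (790 higher and 1104 lower). The median log2 fold change was 0.66 over the members and 0.01 over all genes. Adjusted p-values here and below come from edgeR's quasi-likelihood test with Benjamini-Hochberg adjustment over all tested genes.

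Among the serine synthesis genes, Psat1 changed most. Its level was 0.0557 to 0.450 CPM on Control diet (median 0.327) and 1.21 to 8.10 CPM on Low Protein diet (median 5.40), so that the lowest Low Protein library exceeded the highest Control library. The fitted change was 4.09 ± 0.58 (SE) on the log2 scale, a 17.1-fold difference (adjusted p = 8.647e-07). Psph, the last step, read 1.78 to 2.43 CPM on Control diet (median 2.12) and 1.98 to 3.43 CPM on Low Protein diet (median 2.96). Only replicate 1 of the Low Protein libraries lay within the Control range. Psph rose by 0.46 ± 0.13 (SE) on the log2 scale (adjusted p = 0.01452), a call lost when only these 12 libraries were fitted (adjusted p = 0.06644). Phgdh, the first step, read 0.114 to 0.562 CPM on Control diet (median 0.271) and 0.0309 to 1.82 CPM on Low Protein diet (median 0.673). Its lowest Low Protein library, replicate 3, held 1 count, below every Control library, while 4 others exceeded the Control range. The log2 difference of 1.46 ± 0.58 (SE) did not pass the threshold (adjusted p = 0.09881) and did without that library (1.71, adjusted p = 0.04383). It passed in no other fit that left out 1 of these 12 libraries. Without Low Protein replicate 5 it was 1.05 (adjusted p = 0.328).

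The mitochondrial folate genes fell into those that changed and one that did not pass. Aldh1l2 read 0.0357 to 0.487 CPM on Control diet (median 0.253) and 0.989 to 3.64 CPM on Low Protein diet (median 2.56), with no overlap. It rose by 3.16 ± 0.43 (SE) on the log2 scale, or 8.97-fold (adjusted p = 3.335e-07). Mthfd1l read 0.795 to 1.21 CPM (median 1.04) against 1.95 to 4.21 CPM (median 2.88), again without overlap. The rise was 1.54 ± 0.30 (SE) on the log2 scale, or 2.91-fold (adjusted p = 0.0002516). Mthfd2 read 0.111 to 0.555 CPM on Control diet (median 0.349) and 0.278 to 0.980 CPM on Low Protein diet (median 0.435). The groups overlapped widely, and the log2 difference of 0.66 (95% interval -0.10 to 1.41) did not pass (adjusted p = 0.2992).

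The abundant folate enzymes of hepatocytes moved the other way or not detectably. Aldh1l1 fell from 856 to 956 CPM on Control diet (median 891) to between 383 and 498 CPM on Low Protein diet (median 440), and the groups did not overlap. It was 2.03-fold lower, with a log2 change of -1.02 ± 0.16 (SE; adjusted p = 1.052e-05). Shmt1 read 150 to 177 CPM on Control diet (median 165) and 109 to 148 CPM on Low Protein diet (median 112.5), narrowly without overlap. Its log2 change was -0.45 ± 0.09 (SE; adjusted p = 0.0005798). Shmt2, the mitochondrial isozyme, read 112 to 123 CPM on Control diet (median 119) and 69.5 to 125 CPM on Low Protein diet (median 105.5). The spread widened, and the log2 difference of -0.21 (95% interval -0.45 to 0.02) did not pass (adjusted p = 0.2574).

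These fold changes depend on how libraries were scaled. With library totals in place of TMM factors (edgeR's trimmed mean of M-values), the median of all genes in this comparison moved to 0.26, and 5337 of 5652 calls were higher. Relative to that median, Aldh1l1 stood at -1.04, Shmt1 at -0.47 and Psat1 at 4.08. Taken as fitted, Shmt1 then missed the threshold (-0.21, adjusted p = 0.1077), and Phgdh passed it (1.72, adjusted p = 0.0203), so that 5 members were higher and 1 lower. None of the 6 calls was lost when any 1 of the 12 libraries was left out, and the log2 change of Psat1 then ranged from 3.90 to 4.30 and that of Aldh1l2 from 2.93 to 3.41.

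**Figure D1:**
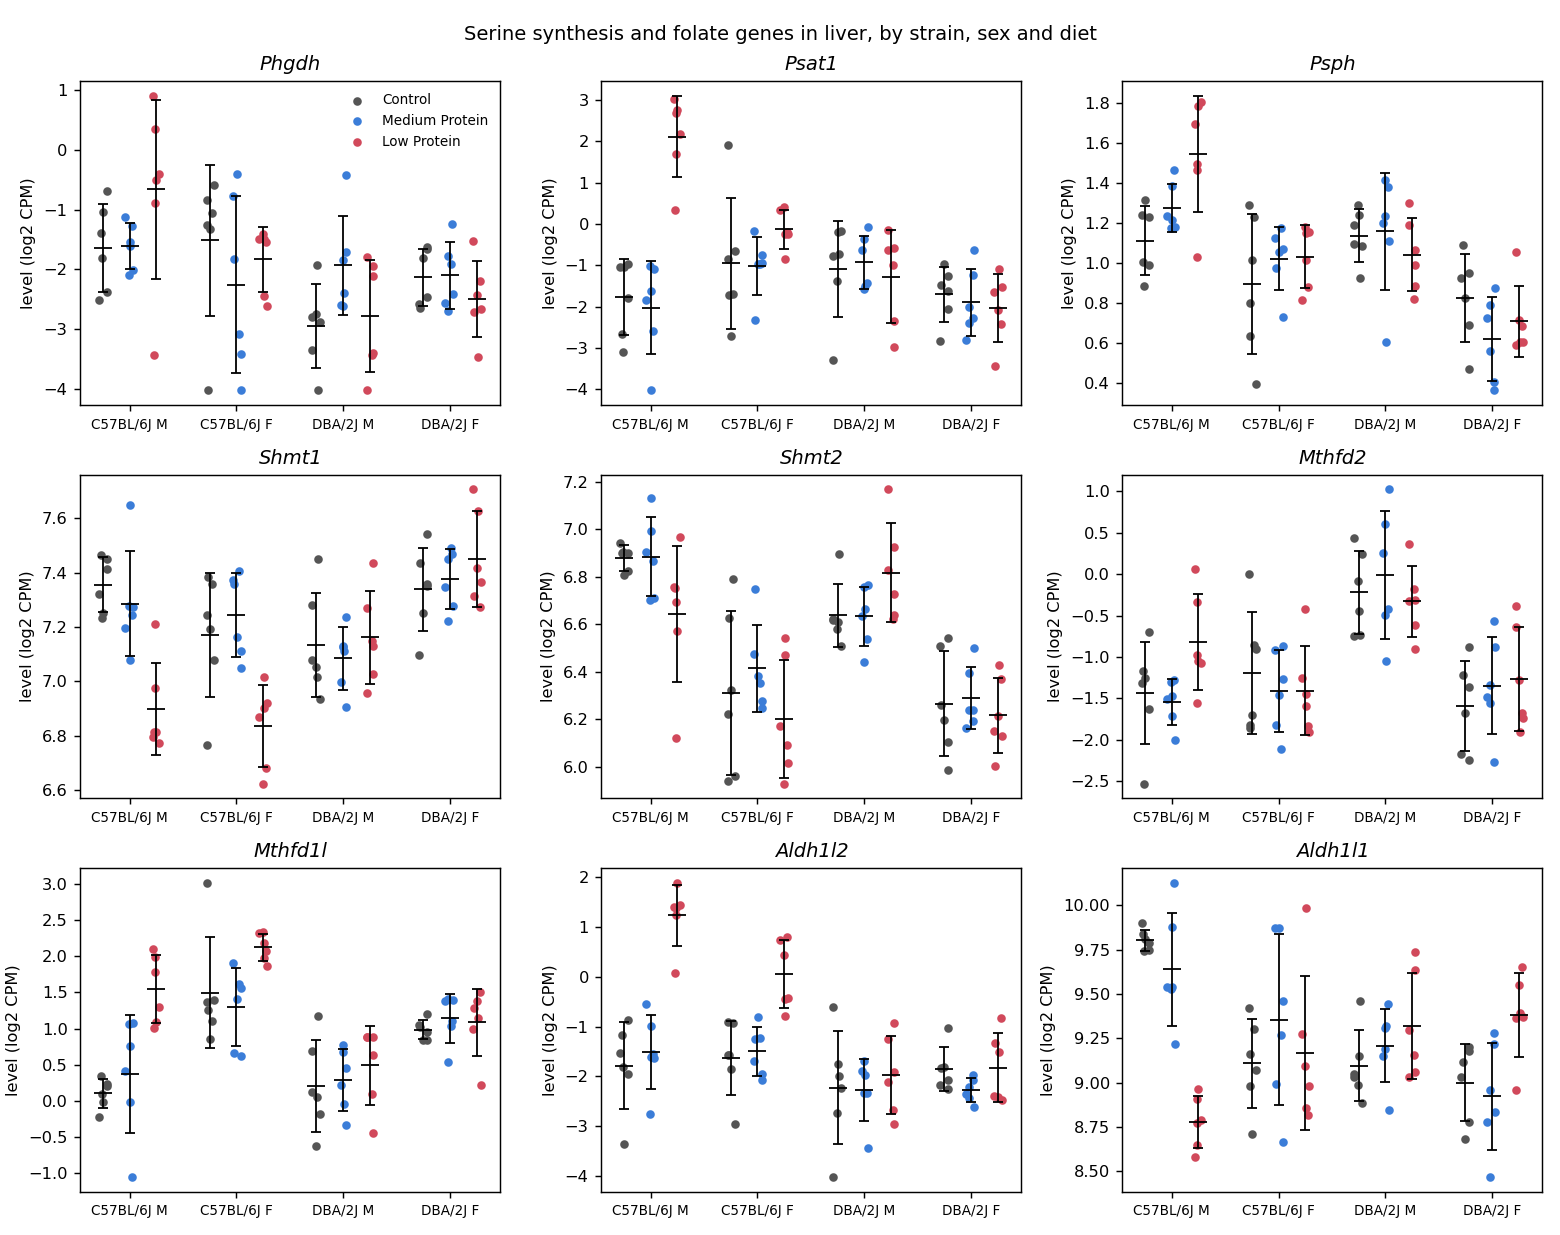
Level of each of the 9 genes (log2 CPM, vertical axis, scaled per panel) in every library, grouped along the horizontal axis by strain and sex and coloured by diet; points are libraries and bars the mean ± SD of 6. In C57BL/6J males the Low Protein libraries of Psat1, Mthfd1l and Aldh1l2 lie above all Control libraries and those of Shmt1 and Aldh1l1 below them.

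Some cell type markers were called in the same contrast, where 9.78% of all genes were. Of 6 red blood cell markers, 4 were higher in C57BL/6J males on Low Protein diet (summed level 168 to 478 CPM against 127 to 259 CPM on Control diet). Of 7 hepatocyte markers 1 was lower, near that share. Of 6 periportal hepatocyte markers 4 were lower, though their summed level (4107 to 5604 CPM) lay within the Control range (2939 to 6297 CPM). Of 8 pericentral markers 2 were lower (summed level 6878 to 9130 CPM against 8818 to 10260 CPM). No marker was called there in the lists for bile duct, macrophage, T and NK, B and plasma, neutrophil, stellate, endothelial, proliferating, pancreatic acinar, adipocyte and skeletal muscle cells. The pancreatic acinar markers summed to 0.169 to 6.68 CPM against 0.0653 to 0.262 CPM, with 5 of the 10 at 0 in the Control libraries, and the top value belonged to Low Protein replicate 2. Without that library Psat1 differed by 4.13 and Aldh1l2 by 3.14 on the log2 scale. The part of the other markers in these results was not tested, and in whole tissue fewer cells of a type and less RNA per cell cannot be told apart.

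In C57BL/6J females, Aldh1l2 rose and Shmt1 fell on Low Protein diet, and the other 7 members did not pass. Thus 2 of 9 members were called, where 3.25% of all genes were. Aldh1l2 read 0.0676 to 0.470 CPM on Control diet (median 0.275) and 0.520 to 1.68 CPM on Low Protein diet (median 0.991). The groups did not overlap, and the log2 change was 1.83 ± 0.42 (SE; adjusted p = 0.006093), a 3.56-fold difference. Fitted on these 12 libraries alone it missed the threshold (adjusted p = 0.06799). Shmt1 read 109 to 167 CPM on Control diet (median 149) and 98.6 to 129 CPM on Low Protein diet (median 118), and the groups overlapped. Its log2 change was -0.34 ± 0.09 (SE; adjusted p = 0.02628). The call was lost without Control replicate 2, 3 or 4 or Low Protein replicate 1 or 4 (adjusted p up to 0.1009). It was also lost with only these 12 libraries fitted (adjusted p = 0.1647), with library totals (0.06756) and without a filter on low counts (0.05256).

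Psat1 and Mthfd1l in these females turned on the single Control library named above. Psat1 was at 3.70 CPM in Control replicate 1 and at 0.0919 to 0.575 CPM in the other 5, against 0.489 to 1.27 CPM on Low Protein diet. Mthfd1l was at 8.02 CPM in the same library and at 1.75 to 2.57 CPM in the other 5, against 3.57 to 4.96 CPM on Low Protein diet. All 6 Low Protein libraries thus exceeded the other 5 Control libraries for Mthfd1l and lay below the remaining one. With all libraries, the log2 difference was 0.00 for Psat1 (adjusted p = 0.9998) and 0.43 for Mthfd1l (adjusted p = 0.4563). Without that library, the values were 1.43 (adjusted p = 0.1011) and 0.94 (adjusted p = 0.02247), so that Mthfd1l passed. The library also had the highest Asns (7.43 CPM against 0 to 0.490 CPM) and Trib3 (20.3 CPM against 5.75 to 8.60 CPM) of its group, both textbook ATF4 targets. Its part in the female contrast beyond these values was not tested.

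**Figure D2:**
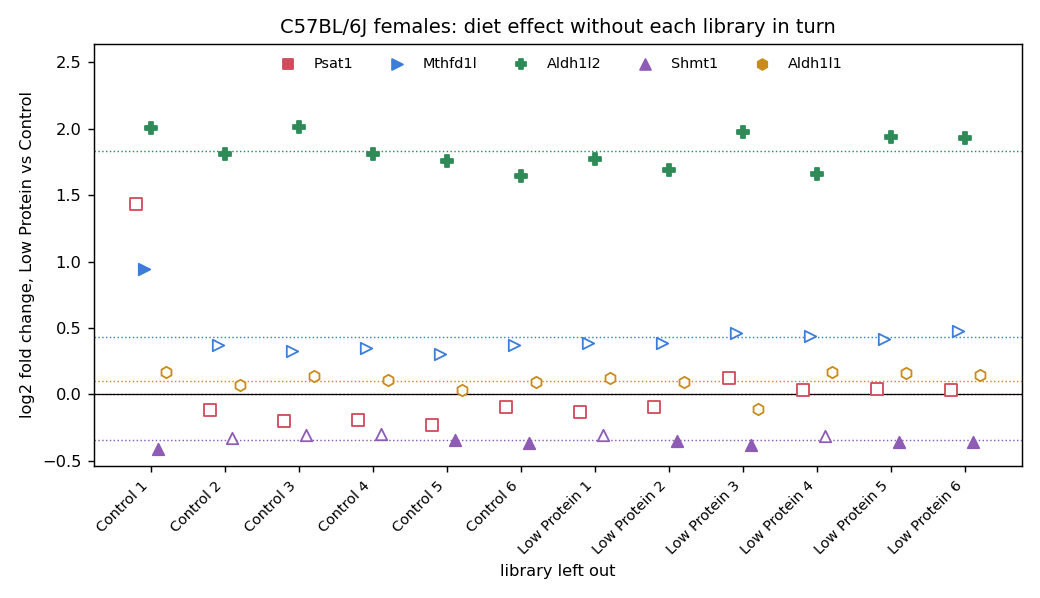
Log2 fold change, Low Protein over Control, of 5 genes in C57BL/6J females when each of the 12 libraries (horizontal axis) is left out in turn; dotted lines give the value with all libraries and filled symbols passed the adjusted threshold. Psat1 goes from 0.00 to 1.43 and Mthfd1l from 0.43 to 0.94 when Control replicate 1 is removed, and Aldh1l2 stays between 1.64 and 2.02.

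No member was called in DBA/2J mice on Low Protein diet. In DBA/2J males 0 of 9 members passed in edgeR, where 0.093% of all genes did; 0 had an unadjusted p below 0.05, and DESeq2 and limma-voom also called 0. Aldh1l2 read 0 to 0.592 CPM on Control diet (median 0.170) and 0.0675 to 0.462 CPM on Low Protein diet (median 0.185), and the groups overlapped almost entirely. The log2 difference was 0.11 (95% interval -0.89 to 1.10) for Aldh1l2 and -0.20 (-1.36 to 0.97) for Psat1. In DBA/2J females 0 of 9 passed in edgeR, where 0.816% of all genes did; 1 had an unadjusted p below 0.05, and DESeq2 and limma-voom called 0. That one was Aldh1l1, at 411 to 588 CPM on Control diet (median 540) and 498 to 803 CPM on Low Protein diet (median 666), with a log2 difference of 0.39 ± 0.16 (SE; adjusted p = 0.3015). Of 7 hepatocyte markers 1 was higher in these females, and its part in that value was not tested. Psat1 differed by -0.32 (95% interval -1.62 to 0.98) and Aldh1l2 by 0.14 (-0.80 to 1.08). The upper bound for Aldh1l2 in DBA/2J males lies below the fitted change in C57BL/6J males, 3.16. That in DBA/2J females lies below the fitted change in C57BL/6J females, 1.83. These fitted changes have errors of their own. The direct tests between strains are given below, and in females Aldh1l2 did not pass there. With such low calling rates over all genes, a count of 0 among 9 is near the background.

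Medium Protein diet left all 9 members uncalled against Control in each strain and sex. The share of all genes called was 0.418% in C57BL/6J males, 0% in C57BL/6J females, 0.00516% in DBA/2J males and 0.00516% in DBA/2J females. Of the 36 tests on members, 1 had an unadjusted p below 0.05, that of Phgdh in DBA/2J males, and DESeq2 and limma-voom called 0. Phgdh there read 0 to 0.203 CPM on Control diet (median 0.0784) and 0.102 to 0.686 CPM on Medium Protein diet (median 0.174), and the groups overlapped. In C57BL/6J males, Psat1 read 0 to 0.430 CPM on Medium Protein diet, and Aldh1l2 0.0860 to 0.619 CPM, both overlapping their Control ranges. The log2 difference from Control was -0.28 (95% interval -1.65 to 1.08) for Psat1 and 0.28 (-0.67 to 1.22) for Aldh1l2.

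**Figure D3:**
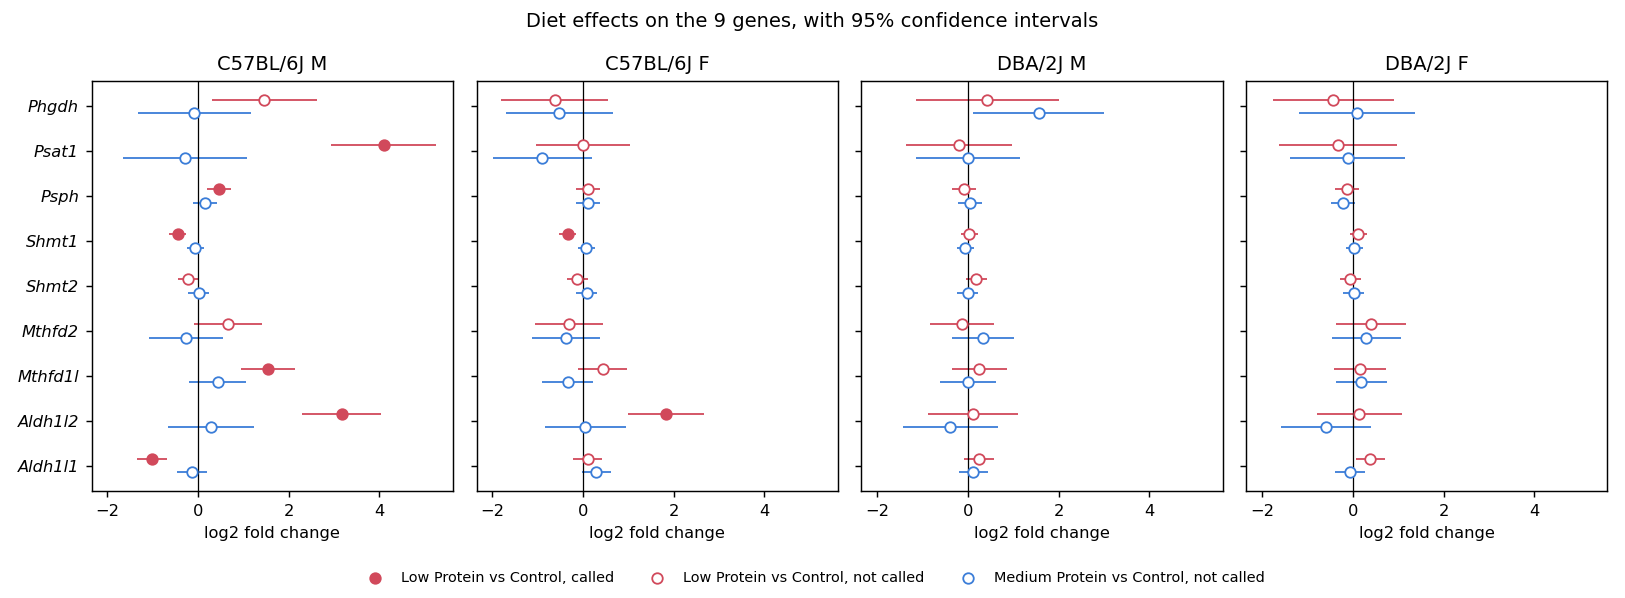
Log2 fold change against Control of each gene (vertical axis) with its 95% confidence interval, in 1 panel per strain and sex on a shared horizontal axis; filled points passed the adjusted threshold and open points did not. The 6 filled points of C57BL/6J males and the 2 of C57BL/6J females are all Low Protein effects, and the DBA/2J panels have none.

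The Low Protein libraries of C57BL/6J males also differed from the Medium Protein ones in 5 members, where 6.53% of all genes were called; this contrast shares its Low Protein libraries with the one above. Psat1 was 4.38 ± 0.60 (SE) higher on the log2 scale (adjusted p = 5.528e-07), Aldh1l2 2.89 ± 0.42 (adjusted p = 2.136e-06) and Mthfd1l 1.10 ± 0.29 (adjusted p = 0.01116). Aldh1l1 changed by -0.89 ± 0.16 (SE; adjusted p = 0.0001481) and Shmt1 by -0.39 ± 0.09 (adjusted p = 0.004215). The Mthfd1l and Shmt1 groups overlapped, and both calls were lost when only these 12 libraries were fitted; with library totals, which moved the median of all genes to 0.19, 7 members passed, 6 higher and 1 lower. Shmt1, at -0.39 relative to that median, then missed the threshold as fitted (adjusted p = 0.176). Psph (adjusted p = 0.01518), Phgdh (0.03331) and Mthfd2 (0.04875) passed in that setting, and did not with TMM factors (adjusted p = 0.1837, 0.1027 and 0.1605). In C57BL/6J females 2 of 9 members were called, where 1.94% of all genes were. Aldh1l2 differed by 1.78 ± 0.42 (SE; adjusted p = 0.009947) and Shmt1 by -0.41 ± 0.09 (adjusted p = 0.008656). With only these 12 libraries fitted Shmt1 missed the threshold (adjusted p = 0.05261), and in limma-voom Mthfd1l passed it (0.85, adjusted p = 0.03754). In DBA/2J, 0 of 9 passed in males, where 0% of all genes did, and 0 of 9 in females, where 0.0413% did; 0 and 1 members had an unadjusted p below 0.05, and DESeq2 and limma-voom called 0.

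Averaged over the 4 combinations of strain and sex, 4 members passed for Low Protein against Control, where 8.01% of all genes did. No member was called in DBA/2J alone, so an average here need not hold in each strain. Aldh1l2 changed by 3.16 and 1.83 in C57BL/6J males and females, and by 0.11 and 0.14 in those of DBA/2J. Shmt1 changed by -0.45 and -0.34 in C57BL/6J and by 0.02 and 0.11 in DBA/2J. Aldh1l2 averaged a log2 change of 1.31 ± 0.23 (SE; adjusted p = 7.79e-05), Mthfd1l 0.59 ± 0.15 (adjusted p = 0.004857) and Shmt1 -0.16 ± 0.05 (adjusted p = 0.01826). Psat1 averaged 0.89 ± 0.29 (SE; adjusted p = 0.04535), but its adjusted p ranged from 0.0007909 to 0.08105 when each of the 48 libraries was left out, and 31 of these fits lost the call. It was also lost without a filter on low counts (adjusted p = 0.07688) and without the 4 libraries rich in RNA resembling ribosomal RNA (0.08025). Shmt1 was lost with library totals (-0.09, adjusted p = 0.2527), which left 3 members higher and 0 lower. The lowest adjusted p of Psat1 came without Control replicate 1 of the C57BL/6J females, where the change was 1.25. For Medium Protein against Control, 0 of 9 members passed in edgeR, DESeq2 or limma-voom, where 0% of all genes did, and 0 had an unadjusted p below 0.05.

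The difference between sexes in the Low Protein effect was tested directly. In C57BL/6J, 2 of 9 members differed, where 4.56% of all genes did. The Psat1 effect was 4.09 ± 0.77 (SE) larger in males (adjusted p = 0.0009987), and 2.67 larger without female Control replicate 1 (adjusted p = 0.02005). The Aldh1l1 effect was more negative in males by -1.12 ± 0.23 (SE; adjusted p = 0.002257), since its female log2 change was 0.10. With library totals, which moved the median of all genes to 0.24, Psph (0.58, adjusted p = 0.04411) and Mthfd1l (1.37, adjusted p = 0.02002) passed too, so that 3 members were positive and 1 negative. For Aldh1l2 the difference of 1.33 (95% interval 0.14 to 2.53) did not pass (adjusted p = 0.1996), and for Shmt1 it was -0.11 (-0.38 to 0.16; adjusted p = 0.7169). In DBA/2J, 0 of 9 members differed between the sexes in edgeR, DESeq2 or limma-voom, where 0% of all genes did, and 0 had an unadjusted p below 0.05.

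Between strains, 4 of 9 members differed in their Low Protein effect among males, where 2.88% of all genes did. Subtracting the C57BL/6J effect from the DBA/2J effect gave -4.29 ± 0.82 (SE) for Psat1 (adjusted p = 0.0009139) and -3.06 ± 0.67 for Aldh1l2 (adjusted p = 0.004201). It gave 1.26 ± 0.23 (SE) for Aldh1l1 (adjusted p = 0.0005316) and 0.48 ± 0.13 for Shmt1 (adjusted p = 0.03339). The Shmt1 difference was lost in 11 of 24 fits that left out 1 library, while the other 3 passed in all 24. It was also lost without a filter (adjusted p = 0.07803) and with library totals (0.1854). Mthfd1l differed by -1.29 ± 0.43 (SE) and did not pass in edgeR (adjusted p = 0.08421), but did in DESeq2 (-1.30, adjusted p = 0.04258) and with library totals (-1.46, adjusted p = 0.03695). Library totals moved the median of all genes to -0.17 and also called Psph (-0.72, adjusted p = 0.02659), which gave 1 member positive and 4 negative in place of 2 and 2. Among females 0 of 9 members passed, where 0.093% of all genes did; 2 had an unadjusted p below 0.05, Shmt1 (0.46) and Aldh1l2 (-1.69), and DESeq2 and limma-voom called 0. Without Control replicate 1 of the C57BL/6J females, the Shmt1 difference was 0.53 and passed (adjusted p = 0.04128).

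The paired enzymes of the 2 compartments can be set against each other within a library, without a scaling factor between libraries. The constant added to each count still makes the ratio depend on depth where counts are few, as for Aldh1l2. Reads of Shmt1, Aldh1l1 and Aldh1l2 were also in part shared with other genes, as stated above. The log2 ratio of Aldh1l2 to Aldh1l1 counts (1 added to each) was -11.75 ± 1.01 (SD, n = 6) on Control diet and -7.56 ± 0.61 on Low Protein diet in C57BL/6J males. No value overlapped, and the difference of 4.18 had an exact two-sided permutation p of 0.002165, the smallest that 6 against 6 allow (0.01732 adjusted over 8 tests). With 5 added to each count the difference was 3.55, an 11.7-fold change in place of 18.2-fold, with the same adjusted p. In C57BL/6J females the ratio went from -10.91 ± 0.75 (SD, n = 6) to -9.16 ± 0.98, a difference of 1.74 (exact permutation p = 0.01082, adjusted 0.04328). That call was lost with 5 added to each count (1.37, exact permutation, adjusted p = 0.05196). The differences in DBA/2J were 0.07 in males (exact permutation, adjusted p = 0.9221) and -0.35 in females (adjusted p = 0.4502). The ratio of Shmt2 to Shmt1 differed by 0.22, 0.23, 0.15 and -0.16 in C57BL/6J males and females and DBA/2J males and females, and none passed the exact permutation test (lowest adjusted p = 0.2858).

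**Figure D4:**
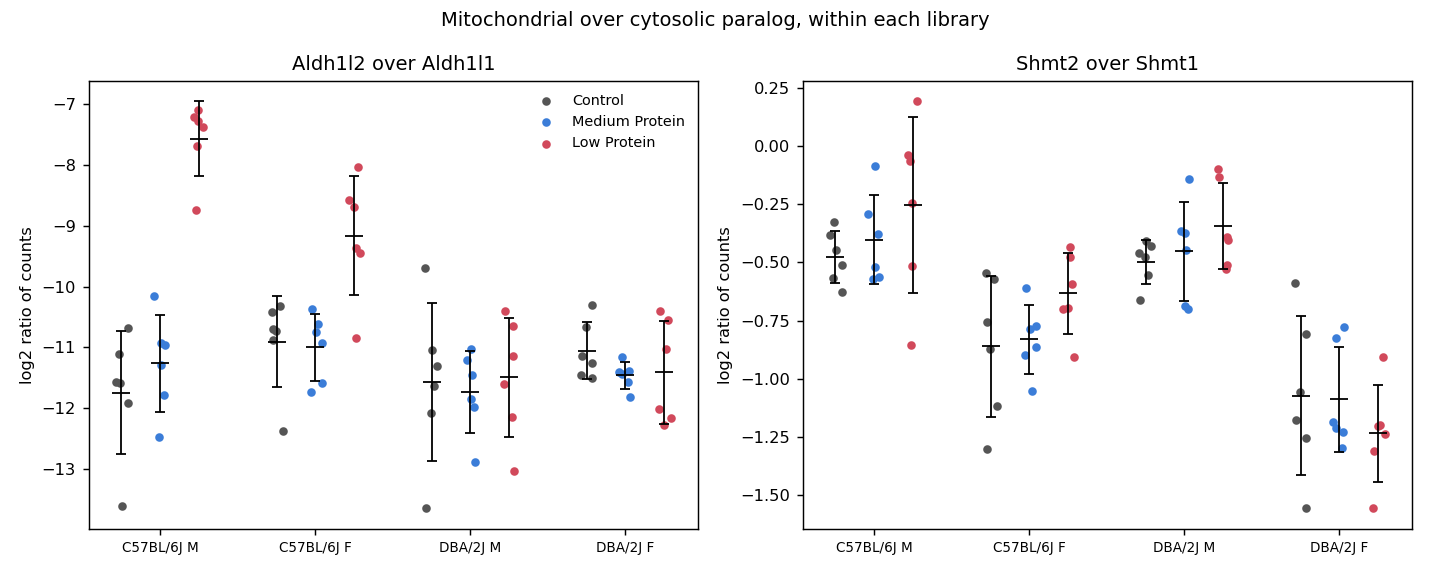
Log2 ratio of the mitochondrial to the cytosolic gene's counts within each library (vertical axis), by strain, sex and diet; points are libraries and bars the mean ± SD of 6. The Aldh1l2 to Aldh1l1 ratio is near -7.56 in C57BL/6J males on Low Protein diet and near -11.75 on Control diet, while the Shmt2 to Shmt1 ratios on Control and Low Protein diet overlap in every combination.

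On Control diet the members also differed between the sexes. In C57BL/6J, 4 of 9 passed, where 20.8% of all genes did. Aldh1l1 read 419 to 686 CPM in females and 856 to 956 CPM in males, without overlap, a log2 difference of 0.68 ± 0.16 (SE; adjusted p = 0.001425). Shmt2 read 61.4 to 110.5 CPM in females and 112 to 123 CPM in males, narrowly apart, a difference of 0.53 ± 0.12 (SE; adjusted p = 0.0004122). Mthfd1l went the other way, at 1.75 to 8.02 CPM in females and 0.795 to 1.21 CPM in males. Its difference of -1.65 ± 0.30 (SE; adjusted p = 3.233e-05) became -1.14 (adjusted p = 0.001809) without female replicate 1. Psat1 was also lower in males (-1.61 ± 0.59 SE, adjusted p = 0.04158), but without that library the value was -0.19 (adjusted p = 0.8604), and the call was also lost without male replicate 4, 5 or 6, without a filter, without the 4 libraries named above, with only these 12 libraries fitted and in limma-voom (-0.79, adjusted p = 0.5224). With library totals the median of all genes moved to -0.35. Relative to it, Aldh1l1 stood at 0.69 and Shmt2 at 0.55, but as fitted neither passed (0.34 and 0.20), which left 0 members higher and 2 lower.

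In DBA/2J, 2 of 9 members differed between the sexes on Control diet, where 18.3% of all genes did, a share close to that background. Mthfd2 read 0.149 to 0.483 CPM in females and 0.533 to 1.295 CPM in males, without overlap, and was 1.51 ± 0.37 (SE) higher on the log2 scale in males (adjusted p = 0.001867). Shmt2 read 63.3 to 93.1 CPM in females and 90.9 to 119 CPM in males, with a small overlap. Its difference of 0.36 ± 0.12 (SE; adjusted p = 0.0191) was lost without male replicate 5 or female replicate 3 or 4 (adjusted p up to 0.06855). With library totals, which moved the median of all genes to -0.29, the Shmt2 value was 0.08 (adjusted p = 0.6312). In that setting Shmt1 (-0.49, adjusted p = 0.0001264) and Mthfd1l (-0.97, adjusted p = 0.009925) passed, so that 1 member was higher in males and 2 lower in place of 2 and 0. Relative to the moved median these values are -0.19 and -0.68. The same 2 genes passed without male replicate 5, with adjusted p = 0.04544 for Shmt1 and 0.02601 for Mthfd1l.

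Strain differences on Control diet involved 3 of 9 members in males, where 30.5% of all genes were called, a share close to the background. Aldh1l1 was lower in DBA/2J males, at 472 to 705 CPM, than in C57BL/6J males, by -0.70 ± 0.16 (SE; adjusted p = 0.000489) on the log2 scale and without overlap. Mthfd2 was higher in DBA/2J by 1.28 ± 0.37 (SE; adjusted p = 0.00575), with overlapping groups. Phgdh was lower by -1.81 ± 0.72 (SE; adjusted p = 0.04697), from 14 counts in 6 DBA/2J libraries, and 9 of 12 fits that left out 1 library lost the call, as did library totals, no filter, limma-voom and the fit without the 4 libraries named above (adjusted p up to 0.1436). Shmt1 was not called (-0.21, adjusted p = 0.07956) but passed without those 4 libraries (-0.29, adjusted p = 0.03432) and without DBA/2J replicate 5, and Shmt2 (-0.24, adjusted p = 0.1156) passed with only these 12 libraries fitted (adjusted p = 0.009562). In females 2 of 9 were called, where 27.8% of all genes were, again close to the background. Psat1 (-1.71 ± 0.58 SE, adjusted p = 0.01934) and Mthfd1l (-0.74 ± 0.28 SE, adjusted p = 0.04155) were lower in DBA/2J females. Without Control replicate 1 of the C57BL/6J females the values were -0.27 (adjusted p = 0.7829) and -0.22 (adjusted p = 0.592). The Psat1 call was also lost without DBA/2J replicate 2, and the Mthfd1l call without DBA/2J replicate 1, 2, 3, 4 or 6. Neither passed in limma-voom (-0.81 and -0.52) or with only these 12 libraries fitted, and Mthfd1l was also lost with library totals or no filter.

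Ordered by mean log2 CPM over the 12 groups, C57BL/6J males on Low Protein diet stood first for Phgdh, Psat1, Psph and Aldh1l2 and last for Aldh1l1. C57BL/6J females on Low Protein diet stood second for Psat1 and Aldh1l2, first for Mthfd1l, and last for Shmt1 and Shmt2. The 3 highest groups for Mthfd2 were the DBA/2J males on Medium Protein, Control and Low Protein diet. Shmt2 had male groups in its first 6 places and female groups in the other 6. Of 99 neighbouring pairs in these orders, 8 had an exact two-sided permutation p below 0.05. The smallest p that 6 against 6 libraries allow is 0.002165, so that a lone separated pair among 99 cannot pass after adjustment (lowest adjusted p = 0.2143), and the adjusted values do not show which neighbours differ.

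After each group's mean was subtracted, 1 of 36 pairs was correlated over the 72 libraries after adjustment. Psat1 and Mthfd2 had a Pearson r of 0.51 (permutation p = 0.00002, adjusted 0.00072) and a Spearman rho of 0.48 (permutation p = 0.00008, adjusted 0.00288). Without the 2 libraries farthest from the median of Psat1, r was 0.44. Without Control replicate 1 of the C57BL/6J females, Shmt1 and Aldh1l1 were correlated too (r = 0.42, permutation p adjusted 0.02106; rho = 0.42, adjusted 0.01926).

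The genes whose levels followed a member most closely, among tested genes whose mean log2 CPM was not below 0, are given as a description over 72 libraries that share strain, sex and diet. For Shmt2 they were Hpn (r = 0.89), Grcc10 (0.88) and Fkbp8 (0.88). For Aldh1l1 they were Prodh (r = 0.83), a mitochondrial proline oxidase, Dcxr (0.80) and Cyp2d22 (0.80). For Shmt1 they were Timd2 (r = 0.82), Mmp19 (0.78) and Gm4756 (0.77). The serine synthesis genes were followed less closely: Psph by Fxr2 (r = 0.73), Psat1 by Prmt3 (0.73) and Phgdh by Crebbp (0.54). Among the mitochondrial folate genes, Mthfd1l was followed by Rad51b (r = 0.74), Mthfd2 by Plekha1 (0.73) and Aldh1l2 by Dgkh (0.68). With group means subtracted, Aldh1l1 and Prodh still had an r of 0.82, whereas Aldh1l2 and Dgkh had -0.12.

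Other genes of folate metabolism changed in both directions in C57BL/6J males on Low Protein diet. Of 20 listed genes 19 were tested, 3 rose and 3 fell, where 9.78% of all genes were called. The median log2 change was 0.06 against 0.01 over all genes. Ftcd, which passes the one-carbon unit of histidine breakdown to folate, fell by 0.95 on the log2 scale, from a mean of 260 to 135 CPM (adjusted p = 1.199e-07). Mthfd1, the trifunctional cytosolic folate enzyme, changed by -0.33 (adjusted p = 0.0057). Slc25a32, the mitochondrial folate carrier, rose by 0.46 (adjusted p = 0.01825). Fpgs and Gart were not called (-0.24 and -0.04). In C57BL/6J females, where 3.25% of all genes were called, Ggh, a folate hydrolase, rose (0.43, adjusted p = 0.03505). Another listed gene was called lower there, and the rest were not called. In DBA/2J 0 of 19 passed in either sex, near the background of 0.093% of all genes in males and 0.816% in females.

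Genes that use or carry serine and glycine fell more often than they rose in C57BL/6J males. Of 28 listed genes 27 were tested, 1 rose and 11 fell, where 9.78% of all genes were called. The median log2 change was -0.23 against 0.01 over all genes. Gldc, of the glycine cleavage system, changed by -1.31 ± 0.24 (SE; adjusted p = 9.063e-05), and its mean level went from 133 to 53.9 CPM. Gnmt, which methylates glycine, changed by -1.23 ± 0.17 (SE; adjusted p = 4.475e-07), from 713 to 304 CPM. Dmgdh and Sardh, the mitochondrial enzymes that strip methyl groups from dimethylglycine and sarcosine, changed by -1.06 (adjusted p = 1.632e-09) and -0.75 (adjusted p = 0.0002712). None of these 4 overlapped between the diets. Glyctk and Glyat were not called (0.26 and 0.10). In C57BL/6J females 1 rose, Ptdss2 (0.46, adjusted p = 0.01684), and 1 fell, Srr (-0.32, adjusted p = 0.03453), where 3.25% of all genes were called. In DBA/2J 0 of 27 passed in males, where 0.093% of all genes did, near the background. In DBA/2J females 1 rose, the mitochondrial serine carrier Sfxn1 (0.43, adjusted p = 0.04234), where 0.816% of all genes were called.

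Known ATF4 targets outside the 9 genes moved unevenly. Of 40 listed and tested, 6 rose and 2 fell in C57BL/6J males, where 9.78% of all genes were called. The median was 0.19 against 0.01 over all genes. Asns, asparagine synthetase, read 0.321 to 2.81 CPM on Control diet (median 0.912) and 9.65 to 25.4 CPM on Low Protein diet (median 17.3). On Medium Protein diet it read 1.68 to 16.0 CPM (median 8.18), overlapping both. Control and Low Protein did not overlap, and it rose 13.6-fold (3.76 ± 0.60 SE on the log2 scale, adjusted p = 9.112e-06). Fgf21, a liver hormone, rose by 2.00 (adjusted p = 0.0005567) and Cebpg by 0.47 (adjusted p = 0.0008369). Cth, of transsulfuration, changed by -1.07 (adjusted p = 0.0003402). Trib3 was at -0.76 (adjusted p = 0.1115) and Atf4 itself at -0.05 (adjusted p = 0.8669), and neither passed. In C57BL/6J females 0 rose and 1 fell, Cebpg (-0.39, adjusted p = 0.01803). With 3.25% of all genes called there, that count is near the background. Asns was at 1.36 (adjusted p = 0.1828), with Control replicate 1 included. It read 7.43 CPM in that library, 0 to 0.490 CPM in the other Control libraries and 1.32 to 8.36 CPM on Low Protein diet. All Low Protein libraries thus exceeded the other Control libraries, and Asns was not fitted without replicate 1. In DBA/2J 0 of 40 passed in males, where 0.093% of all genes did, near the background. In DBA/2J females Gpt2 alone passed (0.81, adjusted p = 0.00398), where 0.816% of all genes did. Averaged over the 4 combinations, where 8.01% of all genes were called, Trib3 passed as lower (-0.70, adjusted p = 0.001433). Vldlr was also lower (-0.60, adjusted p = 0.04375), and Pck2 was higher (0.42, adjusted p = 0.004841). Asns did not pass in that average (1.07, adjusted p = 0.1837), which also includes Control replicate 1 of the C57BL/6J females.

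The authors' deposited table gives their own tests for 12 of these contrasts, 108 values for the members. Of these, 15 were called both there and here, 92 in neither, 0 here only, and 1 in the authors' deposited table only, Mthfd1l for Low Protein against Medium Protein in C57BL/6J females. Both sets of tests come from the same series, so they are not independent. Some uncalled log2 values differed in C57BL/6J females. Psat1 for Low Protein against Control was 0.97 there and 0.00 here. Phgdh for Low Protein against Medium Protein was 0.83 there and -0.10 here.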

How the data were processed

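Liver RNA was sequenced as stranded polyA libraries over 2 lanes that were merged, per the labels' protocols. The authors deposited expected counts per gene, made with RSEM per the submitters' processing notes, which also list limma, edgeR and R (3.4.3). The sources used here give no aligner, annotation or build. RSEM divides reads among genes they match, and 11.6% of the values were not whole. The authors' deposited comparison table holds log2 fold changes, p-values and test scores, used only for the final comparison.

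Expected counts were rounded and analysed with edgeR 4.0.16 and limma 3.58.1 in R 4.3.3: filterByExpr kept 19362 genes, TMM scaled the libraries, and 1 quasi-likelihood fit of the 12 group means gave 22 contrasts with Benjamini-Hochberg adjustment over all genes (called: below 0.05). CPM used TMM-scaled totals. The biological coefficient of variation was 0.207. SEs were taken from the F statistic. Exon lengths are those of a mouse annotation that may differ from the authors'. Paralog ratios, orders and correlations were tested by permutation (scipy 1.17.1, Python 3.11.15; 100000 resamples for correlations, exact otherwise). The code was tested on simulated data. Gene names were matched to 51633 identifiers. Alternatives were RLE factors, library totals, other filters, DESeq2 1.42.0, limma-voom, fits of 2 groups, other pseudocounts, and left-out libraries.

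The members and the gene lists were chosen with earlier results of these data known. Named genes were all 9 members, Asns, Trib3 and Atf4, per list and Low Protein contrast up to 4 called genes with the smallest p and up to 2 uncalled genes with the highest mean, and per member the 3 genes with the highest Pearson r, some of which are left out of the text. One gene that this rule names is not reported here. Intervals cover the spread between libraries.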

Additional observations from a re-analysis of the deposited data

Results flagged for a closer look

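Within the 108 combinations of gene and group, 9 had a library far from the other 5 by Dixon's criterion, a criterion that chance meets in about 1 group in 20. For Mthfd1l, C57BL/6J female Control replicate 1 was highest at 8.02 CPM. For Phgdh, C57BL/6J female Control replicate 4 was lowest at 0 CPM. Aldh1l2 was low in C57BL/6J male Low Protein replicate 3 (0.989 CPM) and in DBA/2J male Medium Protein replicate 3 (0.0304 CPM), and high in DBA/2J female Control replicate 5 (0.426 CPM). Psat1 was low in C57BL/6J female Medium Protein replicate 4 (0.138 CPM). Psph was high in DBA/2J female Low Protein replicate 1 (2.01 CPM), Shmt1 in C57BL/6J male Medium Protein replicate 6 (200.8 CPM, a library rich in RNA resembling ribosomal RNA) and Shmt2 in DBA/2J male Control replicate 5 (119 CPM).

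Low Protein effects differed between groups by the test of the difference (edgeR, adjusted over all genes) in 6 cases. Between the sexes of C57BL/6J, males minus females, the difference was 4.09 for Psat1 and -1.12 for Aldh1l1. Between the strains in males, DBA/2J minus C57BL/6J, it was -4.29 for Psat1, -3.06 for Aldh1l2, 1.26 for Aldh1l1 and 0.48 for Shmt1.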

How the results depend on the processing

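No member changed the sign of a called difference under any alternative. RLE factors changed 0 of 51 results on single members and library totals changed 20 (10 lost, 10 gained). Without a filter 6 were lost, and in limma-voom 4 were lost and 1 gained. With only the 2 groups compared fitted, 9 of 34 results were lost and 1 gained. DESeq2 gained 1 of 49 and gave no adjusted p for Aldh1l2 in the strain difference of males. Without the 4 libraries rich in RNA resembling ribosomal RNA, chosen after seeing the data, 3 were lost and 1 gained. Counts of called members moved as follows. For Low Protein against Control in C57BL/6J females, 2 became 1 with library totals, 1 without a filter and 0 with only the 2 groups fitted, and 1 to 3 with a library left out (3 without Control replicate 1). With only the 2 groups fitted, Low Protein against Medium Protein gave 3 in place of 5 in C57BL/6J males and 1 in place of 2 in females. Library totals gave 4 in place of 2 for the sex difference of the Low Protein effect in C57BL/6J, and 2 in place of 4 for the sexes on Control diet. For the strains on Control diet in females, 2 became 1 with library totals or without a filter, 0 with limma-voom or 2 groups, and 0 to 2 with a library left out. Leaving out a library gave 0 to 1 for the strain difference of females and 1 to 3 for the sexes of DBA/2J on Control diet, both added after seeing the data. The Aldh1l2 to Aldh1l1 difference in C57BL/6J females was 1.37 with a pseudocount of 5 (exact permutation, adjusted p = 0.05196). Correlated pairs became 4 with library totals and 2 without Control replicate 1 of the C57BL/6J females, added after seeing the data. Where no construction shows it, the cause was not tested. Depth limits Phgdh, Psat1, Mthfd2 and Aldh1l2, which had few counts on Control diet. No library was left out in turn for the contrasts with Medium Protein. No paired analysis was possible because, within a strain and sex, no code in the sample titles recurs between diets. Some codes recur between strains or sexes, whose mice are different animals. Within some groups, titles also share a number followed by different letters. The labels do not say what a shared code or number marks, and no fit blocked on either was run. The fits took the libraries of a group as independent.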
